A study of Mus musculus with 16 samples.

Results

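The genes described here are Rag1, Rag2 and Dntt, which encode the 2 subunits of the lymphocyte recombinase and the terminal transferase. They were chosen by symbol and make up 3 of the 38293 genes in the count files, with 1 Ensembl gene each (ENSMUSG00000061311, ENSMUSG00000032864 and ENSMUSG00000025014). Expression was measured by RNA-Seq in 2 mouse lymphoid lines, with 3 libraries of P6D4 and 3 of 70Z/3, both without any treatment in the labels. P6D4 is labelled as a SCID.adh thymic lymphoma line at the DN3 stage, an early thymocyte stage without CD4 or CD8 at the surface. SCID.adh lymphomas arose in SCID mice, whose mutation in Prkdc impairs the joining of recombinase breaks. 70Z/3 is a pre-B lymphoblast line. Each line stands for a lineage by a single tumour-derived culture, so lineage and line cannot be told apart.

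Rag1 and Rag2 together cut DNA at recombination signals beside the V, D and J segments of antigen receptor genes. RAG1 carries the active site, and RAG2 reads trimethylated lysine 4 of histone H3 through its PHD finger. Both genes are normally switched on together in early B and T cells, off during the divisions after a first receptor chain is made, and on again for the second chain. Dntt encodes terminal transferase (TdT), a family X polymerase that adds untemplated bases to the cut ends before they are joined. In mouse it is known as a gene of pro-B cells and early thymocytes that is low in pre-B cells.

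The start regions of the genes are shown because Rag1 and Rag2 lay together on the higher side in P6D4 and Dntt on the other. They come from RefSeq on GRCm38.p6, all 3 genes matched, and each runs from 250 bases before to 50 bases after the annotated start, 5′ to 3′ on the gene's strand. Rag1 is the minus strand at chr2:101649483-101649782, Rag2 the plus strand at chr2:101624462-101624761 and Dntt the plus strand at chr19:41029025-41029324. Iftap, which overlaps Rag2, is shown from the minus strand at chr2:101628982-101629281. In Rag1, capitals mark the Runx core TGTGGT and the letters ATTGG, which read CCAAT (the NF-Y box) on the other strand. In Rag2 they mark the E-box CANNTG, bound by E proteins, in Dntt TGGGAG, and in Iftap TGGGAA (or TTCCCA) and ATTGG. The motifs TGGGAG and TGGGAA hold the GGGA core read by Ikaros zinc fingers. Capitals mark only the motifs named for each gene, and matches of the other motifs, counted below, stay in lower case.
Rag1: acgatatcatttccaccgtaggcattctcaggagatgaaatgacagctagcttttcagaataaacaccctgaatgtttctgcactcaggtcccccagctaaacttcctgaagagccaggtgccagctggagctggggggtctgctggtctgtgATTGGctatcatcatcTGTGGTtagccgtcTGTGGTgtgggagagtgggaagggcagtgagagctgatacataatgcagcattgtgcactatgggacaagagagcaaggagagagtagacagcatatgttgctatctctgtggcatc
Rag2: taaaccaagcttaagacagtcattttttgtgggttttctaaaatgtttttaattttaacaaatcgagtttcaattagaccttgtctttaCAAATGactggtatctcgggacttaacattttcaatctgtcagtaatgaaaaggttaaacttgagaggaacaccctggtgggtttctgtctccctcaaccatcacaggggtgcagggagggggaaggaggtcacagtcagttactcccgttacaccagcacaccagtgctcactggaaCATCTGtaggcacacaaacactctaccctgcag
Dntt: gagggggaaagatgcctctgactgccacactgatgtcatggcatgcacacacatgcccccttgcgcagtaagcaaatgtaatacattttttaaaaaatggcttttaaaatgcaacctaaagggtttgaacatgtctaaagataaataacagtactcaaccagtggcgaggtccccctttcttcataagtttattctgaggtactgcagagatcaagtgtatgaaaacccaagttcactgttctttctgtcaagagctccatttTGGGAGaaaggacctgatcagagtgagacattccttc
Iftap: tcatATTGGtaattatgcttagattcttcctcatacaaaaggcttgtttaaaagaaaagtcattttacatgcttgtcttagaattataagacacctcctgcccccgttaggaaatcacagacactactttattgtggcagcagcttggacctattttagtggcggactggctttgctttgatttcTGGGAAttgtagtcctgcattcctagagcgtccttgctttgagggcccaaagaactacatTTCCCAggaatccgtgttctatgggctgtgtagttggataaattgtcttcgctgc

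The motifs were searched on both strands, and a match describes letters, not binding. The Rag1 region held 2 matches of TGTGGT, beginning 81 and 67 bases before the start, and 1 of CCAAT. The share with TGTGGT was 16.8% and that with CCAAT 37.4% of the 32851 RefSeq start regions of this length. Rag1 also held 4 matches of CANNTG, the first base of 1 of them at -85 so that it overlapped a TGTGGT match by 2 letters, and 1 each of TGGGAG and TGGGAA. Rag2 held 2 matches of CANNTG, a motif found in 72.3% of the regions, and none of the other motifs searched. The Dntt region held 3 matches of CANNTG, 1 of TGGGAG beginning 14 bases into the transcript, and 1 of the motif AGATAA (read by GATA factors). TGGGAG was found in 29.1%, TGGGAA in 25.6% and AGATAA in 11.2% of the regions. TATAAA (13.6% of regions) and GTAAACA, a forkhead-type motif (3.65%), had no match in these 3 windows. The GC content was 50.0% for Rag1, 43.0% for Rag2 and 42.3% for Dntt, against a median of 52.7%.

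The 6 RNA libraries held 45481949 to 54815145 counts in genes. Levels are given as CPM, counts scaled to a common library total with TMM factors, and are not divided by transcript length, so levels of different genes are not compared here. Libraries of 1 line were not alike within sampling noise: their pairs had a chi-square per degree of freedom of 2.46 to 13.8. Whether replicates are separate cultures is not in the labels, so the p-values below take in the spread of 3 libraries, which may be technical, and nothing wider. The lineage labels were set beside 10 markers each. All 10 DN3 thymocyte markers, among them Cd3e and Thy1, were higher in P6D4, with a summed level of 3003 to 3035 CPM in P6D4 against 149.4 to 155.9 CPM in 70Z/3. All 10 pre-B markers, among them Ebf1 and Igll1, were lower in P6D4, at 1.03 to 1.70 CPM in sum in P6D4 and 2094 to 2149 CPM in 70Z/3. The filter on low counts asked for about 0.206 CPM in 3 libraries. Ebf1 and Igll1 were below that in every P6D4 library, and Cd3e and Thy1 did not reach it in every 70Z/3 library. Such markers passed through the line where they were high, so their calls describe the lines and do not test the labels. By the same test over all genes, 13750 genes were tested, and 43.3% of them passed as higher in P6D4 and 43.2% as lower, 86.5% in all (edgeR, adjusted p under 0.05). The coreceptor genes that a DN3 cell is defined by lacking were not all silent: Cd8a was at 73.6 ± 7.75 CPM and Cd8b1 at 35.7 ± 0.505 CPM in P6D4, and at 0.0427 ± 0.0368 and 0.0350 ± 0.0429 CPM in 70Z/3 (SD, n = 3). Cd4 was at 2.82 ± 0.0675 CPM in P6D4 against 0.128 ± 0.0330 CPM in 70Z/3.

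Markers of other cells were low or mixed. Of 6 myeloid markers 3 could be tested, and Itgam was higher in P6D4 while Csf1r and Lyz2 were lower. The 6 summed to 27.6 to 34.1 CPM in P6D4 against 21.2 to 23.0 CPM in 70Z/3, and Adgre1 was at 0 in 70Z/3. The 4 NK markers summed to 0.190 to 0.411 CPM in P6D4 against 2.01 to 2.81 CPM in 70Z/3, where 1 of 1 tested, Klrb1c, was higher than in P6D4. Klrk1 and Eomes were at 0 in P6D4 and Ncr1 and Eomes at 0 in 70Z/3. Of 5 erythroid markers 2 were tested, with Epor higher and Klf1 lower in P6D4, and sums of 4.31 to 6.17 CPM in P6D4 against 1.00 to 1.10 CPM in 70Z/3. Epor and Hba-a1 were at 0 in 70Z/3. Of 5 stromal markers only Pdgfrb was tested, and it was higher in P6D4. The sums were 3.78 to 4.49 CPM in P6D4 against 0.497 to 0.936 CPM in 70Z/3, with the 3 collagen genes and Cdh5 at 0 in P6D4 and Col3a1 at 0 in 70Z/3. Whether any such cells were present in the cultures was not tested, nor was a part of them in the results below.

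Rag1 transcripts were abundant in P6D4 and scarce in 70Z/3. P6D4 replicates 1, 2 and 3 held 28959, 26861 and 23304 counts, or 522, 509.7 and 478.2 CPM. The 70Z/3 replicates held 31, 42 and 49 counts, or 0.660, 0.870 and 1.09 CPM. All P6D4 libraries lay far above all 70Z/3 libraries, as 43.8% of tested genes did in that direction. The log2 fold change was 9.17 ± 0.08 (SE; adjusted p = 5.56e-18 by edgeR), a 577-fold difference. It was called higher, as were 43.3% of genes, and ranked 335 of 13750 from the most raised gene. The ratio of the summed counts had an exact 95% counting interval of 486 to 699. In bulk RNA, fewer cells with the transcript and less of it per cell cannot be told apart.

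Rag2, the partner subunit, was higher in P6D4 by a smaller factor. It had 800, 749 and 634 counts in P6D4 (14.4, 14.2 and 13.0 CPM). In 70Z/3 it had 16, 17 and 11 counts (0.341, 0.352 and 0.244 CPM). The groups did not overlap, as for 43.8% of tested genes in that direction, and Rag2 was called higher, as were 43.3%. The log2 fold change was 5.46 ± 0.13 (SE; adjusted p = 8.31e-14 by edgeR), or 44.0-fold with a counting interval of 32.9 to 61.2, and Rag2 ranked 825.

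Dntt ran the other way. It had 6, 9 and 8 counts in P6D4 (0.108, 0.171 and 0.164 CPM). In 70Z/3 it had 649, 664 and 551 counts (13.8, 13.8 and 12.2 CPM). All P6D4 libraries lay below all 70Z/3 libraries, as did 43.6% of tested genes, and the gene was called lower, as were 43.2%. The log2 fold change was -6.48 ± 0.15 (SE; adjusted p = 6.46e-14 by edgeR), and 70Z/3 exceeded P6D4 89.0-fold with a counting interval of 60.2 to 143. Dntt ranked 1068 from the most lowered gene.

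**Figure D1:**
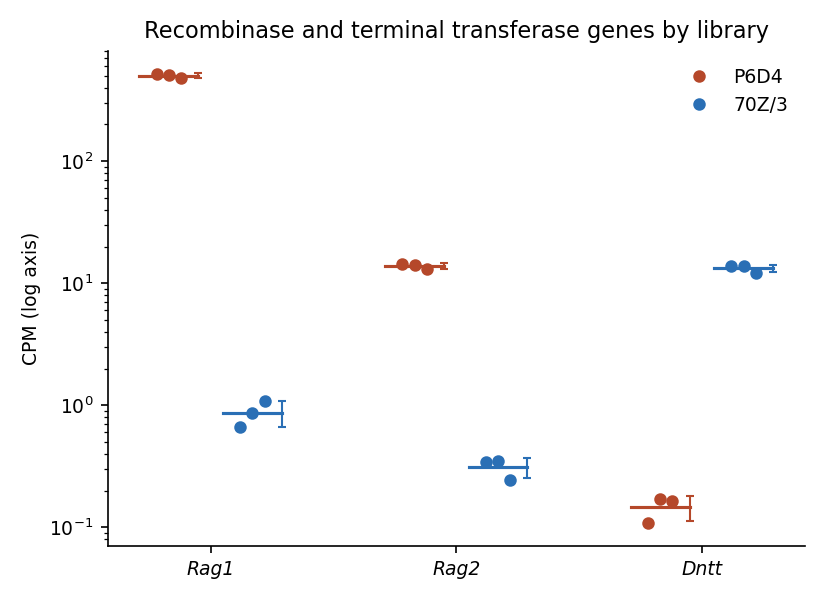
Rag1, Rag2 and Dntt in each library, in CPM on a log axis, with P6D4 in red on the left and 70Z/3 in blue on the right of each gene. Points are the 3 libraries of a line, horizontal lines the means and bars the SD; Rag1 averages 503 CPM in P6D4 against 0.873 CPM in 70Z/3, and Dntt 0.148 and 13.3 CPM.

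All 3 genes passed the filter on low counts, which asked for about 0.206 CPM in 3 libraries. Rag1 and Rag2 reached that level in 70Z/3 as well, while Dntt was below it in P6D4 and passed through 70Z/3 alone. All 3 also differed by more than 2-fold (edgeR glmTreat, adjusted p at most 4.16e-13), where 16.6% of genes were higher and 18.6% lower by that rule, 35.2% in all. None of the genes was at 0 in any library. The 95% counting interval of the level was 0.722 to 1.04 CPM for Rag1 and 0.228 to 0.421 CPM for Rag2 over the 70Z/3 libraries, and 0.0929 to 0.220 CPM for Dntt over the P6D4 libraries.

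The spread between replicates differed by gene and line. Rag1 varied by 4.49% (coefficient of variation) in P6D4, where counting alone gives 0.616%, and by 24.6% in 70Z/3, where counting gives 15.7%. Rag2 varied by 5.48% in P6D4 and 18.97% in 70Z/3, against 3.71% and 26.1% from counting. For Dntt these were 23.3% in P6D4 and 6.73% in 70Z/3, against 36.1% and 4.01%. In the lower line the spread of Rag2 and of Dntt was thus below the counting value, and that of Rag1 above it. Over 3 libraries the Rag1 value does not show a spread beyond counting error. In P6D4 Rag1 and Rag2 deviated alike from their means, by 0.05, 0.02 and -0.07 for Rag1 and 0.06, 0.03 and -0.09 for Rag2 on the log2 scale in replicates 1 to 3. In 70Z/3 the deviations were -0.40, 0.00 and 0.32 for Rag1 and 0.12, 0.17 and -0.35 for Rag2. These rest on 31 to 49 Rag1 and 11 to 17 Rag2 counts per library, too few to show whether the lines differ in this. The P6D4 pattern is not shown to be particular to the pair. In the same replicates Xrcc6 fell, at 642.0, 634.4 and 595.3 CPM, and Gata3 rose, at 129.7, 148.2 and 156.9 CPM. The share of all genes that fell was not counted.

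Ratios within a library set the recombinase against the transferase without any scaling between libraries, and transcript length drops out of their difference between lines. P6D4 replicates 1, 2 and 3 held 4826, 2985 and 2913 Rag1 counts per Dntt count. In 70Z/3 there were 20.9, 15.8 and 11.2 Dntt counts per Rag1 count. Without transcript lengths, such counts do not give which transcript was more abundant within a line. The log2 ratio of Rag1 over Dntt was 11.67 ± 0.39 in P6D4 and -3.94 ± 0.45 in 70Z/3 (SD, n = 3), a difference of 15.61 ± 0.34 (SE). With a pseudocount of 5 in place of 0.5 the difference was 14.82, since Dntt has under 10 counts in each P6D4 library.

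The counts of Rag2 over Dntt differed between the lines in the same direction. There were 133, 83.2 and 79.3 Rag2 counts per Dntt count in P6D4, and 40.6, 39.1 and 50.1 Dntt counts per Rag2 count in 70Z/3. The log2 ratio of Rag2 over Dntt was 6.49 ± 0.40 in P6D4 and -5.38 ± 0.18 in 70Z/3, a difference of 11.87 ± 0.25 (SE; 10.86 with a pseudocount of 5). Both ratios separated the lines completely, which follows from the levels of the 3 genes given above and is not a further result.

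The recombinase genes differed between the lines by unequal factors in these libraries. The counting intervals above, 486 to 699 for Rag1 and 32.9 to 61.2 for Rag2, do not overlap. They cover counting error only, not the spread between libraries, and in 70Z/3 they rest on 122 Rag1 and 44 Rag2 counts in all. P6D4 had 36.2, 35.9 and 36.8 Rag1 counts per Rag2 count, nearly the same in its 3 libraries. The 70Z/3 libraries had 1.94, 2.47 and 4.46. The log2 ratio of Rag1 over Rag2 was 5.18 ± 0.02 in P6D4 and 1.44 ± 0.60 in 70Z/3 (SD, n = 3), a difference of 3.74 ± 0.35 (SE). The 3 ratios each had a two-sided exact permutation p of 0.1 (0.1 adjusted over the 3), which is the smallest that 3 against 3 libraries allow, so none of them could pass the threshold.

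**Figure D2:**
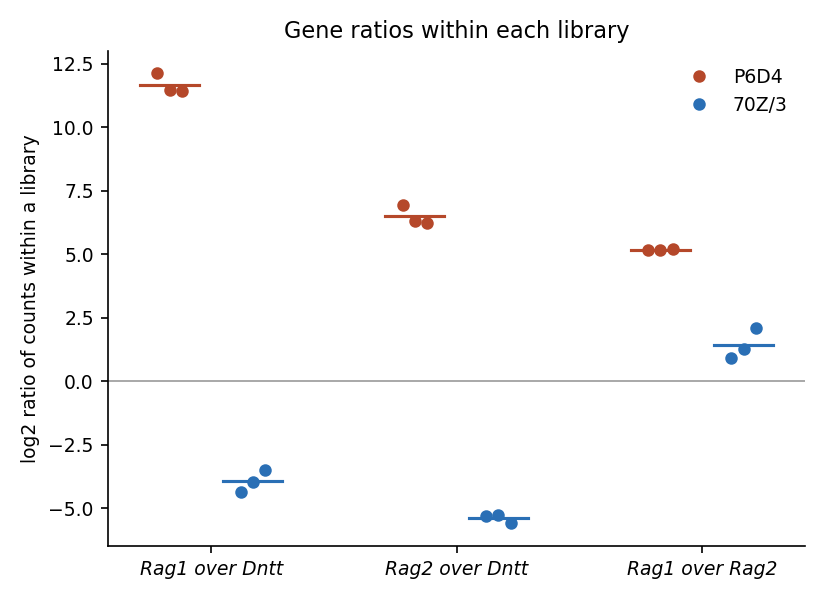
The log2 ratio of the counts of 2 genes within each library (pseudocount 0.5), with P6D4 in red and 70Z/3 in blue; points are libraries and lines are means. Rag1 over Dntt and Rag2 over Dntt lie above 0 in P6D4 and below 0 in 70Z/3, and Rag1 over Rag2 lies near 5.18 in P6D4 and between 0.93 and 2.11 in 70Z/3.

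Rag1 and Rag2 lie tail to tail on chromosome 2 in GRCm38.p6, Rag1 at chr2:101638252-101649532 and Rag2 at chr2:101624712-101632528, with 5723 bases between their bounds. Iftap (NWC in older use, B230118H07Rik in the name table of the files) starts inside Rag2 on the other strand and shares 4320 bases of its bounds. Iftap was higher in P6D4 too. It had 407, 395 and 354 counts in P6D4 and 1, 1 and 0 in 70Z/3, so it passed the filter on low counts through P6D4 alone. The ratio of summed counts was 517 with a 95% counting interval of 143 to 4273 (log2 fold change 8.78, edgeR adjusted p = 4.31e-13). The library kit keeps strand, but the sources used here do not say with which strand setting genes were counted. Reads in the overlap may therefore have been set aside as ambiguous or given to the other gene. With all Iftap counts added to Rag2, the log2 fold change of Rag2 was 6.01 ± 0.12 (SE; adjusted p = 8.89e-15 by edgeR) and the Rag1 over Rag2 difference 3.18. This sum does not recover reads set aside as ambiguous, so it does not settle how far the overlap affects Rag2.

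The nearest neighbour on the Rag1 side, Traf6, was higher in P6D4 by a smaller factor than Rag1 or Rag2. Traf6, an adaptor of innate and TNF-family receptors 28.9 kb beyond Rag1, was at 119.4, 120.1 and 125.4 CPM in P6D4 against 90.01, 86.6 and 84.0 CPM in 70Z/3. Its log2 fold change was 0.49 ± 0.04 (SE; adjusted p = 3.13e-08 by edgeR). Prr5l, next along, had 1 count in all 6 libraries together, and Commd9 was not called at 14.1 ± 0.299 CPM in P6D4 against 14.98 ± 0.555 CPM in 70Z/3 (log2 fold change -0.08, edgeR adjusted p = 0.188). On the Rag2 side the nearest protein-coding gene after Iftap, Lrrc4c, lies 3993 kb away. It was at 0 in P6D4 against 1.97 ± 0.146 CPM in 70Z/3 (SD, n = 3), at least 31.9-fold lower against a floor of 3 counts per library. Api5 and Ttc17, 7187 and 7218 kb away, were lower in P6D4, with log2 fold changes of -0.59 and -0.31.

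Dntt spans chr19:41029275-41059525. The closest gene, Opalin, 2.4 kb away, had 1 count in all, and Tll2, 21.4 kb away, had 2 counts, all in 70Z/3 for both. On the other side Blnk, the adaptor of pre-B receptor signalling 35.1 kb from Dntt, was lower in P6D4 like Dntt and by more. Blnk was at 0.0180, 0.0380 and 0.0616 CPM in P6D4 against 116, 111 and 112 CPM in 70Z/3, and passed the filter on low counts through 70Z/3 alone. Its log2 fold change was -11.44 ± 0.10 (SE; adjusted p = 5.85e-18 by edgeR), from 6 counts in P6D4, and the ratio of summed counts in favour of 70Z/3 was 2958 with a counting interval of 1359 to 8063. Zfp518a, Ccnj and Tm9sf3 had log2 fold changes of -1.27, -1.51 and -0.37, so each of the 4 tested neighbours of Dntt was lower in P6D4, a call shared by 43.2% of all genes tested.

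Miz1, the zinc finger factor encoded by Zbtb17, was mapped by ChIP-Seq in 1 library per line, so peaks have no replicate check. After filtering, 2067731 of 60841509 tags were kept in P6D4 and 4484034 of 30865119 in 70Z/3. No peak summit lay within Rag1, Rag2 or Dntt or within 20 kb of them in either list. With so few tags kept, a missing peak does not show that Miz1 was absent there. The P6D4 list holds 21629 peaks in all and the 70Z/3 list 10462, so counts in the lists are not on an equal footing. Within 100 kb of the bounds, the Rag1-Rag2 locus had 1 peak in the P6D4 list and 0 in the 70Z/3 list. That peak, chr2:101730269-101730539, lay inside Prr5l, 80.9 kb from the Rag1 start, with a fold enrichment of 7.02 (the authors' value, as are the others here) where the median of the list is 6.54. Dntt had 4 peaks in the P6D4 list and 1 in the 70Z/3 list, all inside Tll2. The strongest in P6D4, chr19:41144219-41145401 with a fold of 11.5, overlapped the 70Z/3 peak, chr19:41144724-41145322 with a fold of 8.49, and the peaks in Tll2 lay 84.3 to 88.9 kb beyond the end of Dntt. Over all 21887 protein-coding genes, 52.2% had a P6D4 peak and 51.4% a 70Z/3 peak within 100 kb, so a peak at that distance is common.

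**Figure D3:**
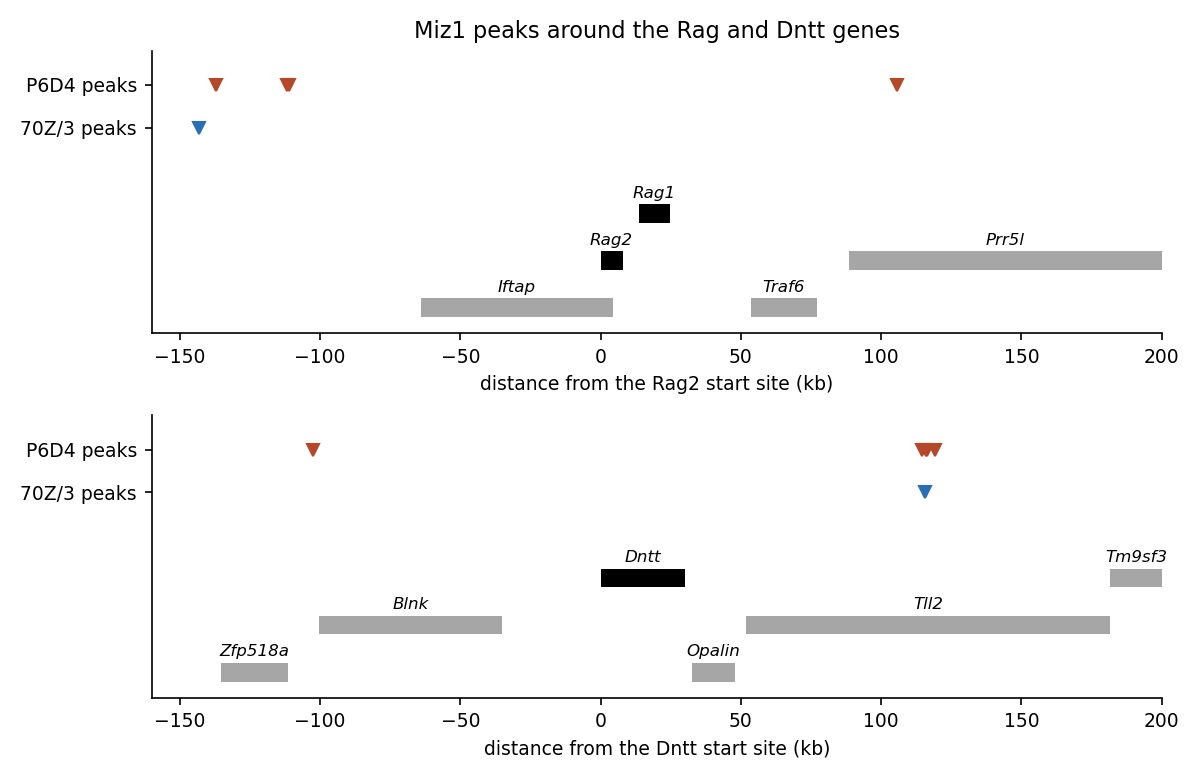
Gene bounds from RefSeq (bars; Rag1, Rag2 and Dntt in black, neighbours in grey) and Miz1 peak summits (triangles; P6D4 list in red above, 70Z/3 list in blue) by distance in kb from the Rag2 start (upper panel) and the Dntt start (lower panel). No summit lies within 20 kb of the 3 genes, and the summits nearest to the bounds of Dntt in both lists fall inside Tll2.

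The other polymerases of family X differed among themselves: Polm was higher in P6D4, Poll lower like Dntt but by less, and Polb was not called. Polm, the closest relative of TdT, which also works at broken ends, was at 15.2, 14.4 and 15.6 CPM in P6D4 against 3.51, 4.54 and 3.95 CPM in 70Z/3. It was thus higher where Dntt was low, with a log2 fold change of 1.91 ± 0.09 (SE; adjusted p = 1.24e-10 by edgeR). Poll, a gap-filling polymerase of end joining, was at 17.4 ± 0.475 CPM in P6D4 against 25.8 ± 0.352 CPM in 70Z/3 (SD, n = 3) and fell by 0.57 ± 0.05 (SE) on the log2 scale, on which all such differences below are given. Polb, of base excision repair, was not called, at 31.1 ± 0.673 CPM in P6D4 against 29.2 ± 0.966 CPM in 70Z/3 (log2 fold change 0.09, edgeR adjusted p = 0.0749). It passed the threshold with upper quartile factors, with library totals only and without 70Z/3 replicate 1 (edgeR adjusted p = 0.00787, 0.0213 and 0.0497). Of the proteins named for binding TdT, Dnttip1 was higher by 0.35 ± 0.05 (SE) and Dnttip2 was not called at 92.0 ± 0.883 CPM in P6D4 against 95.02 ± 3.35 CPM in 70Z/3. Dnttip2 was lower without 70Z/3 replicate 1 (log2 fold change -0.08, edgeR adjusted p = 0.0417), and its sign turned to 0.01 with upper quartile factors.

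**Figure D4:**
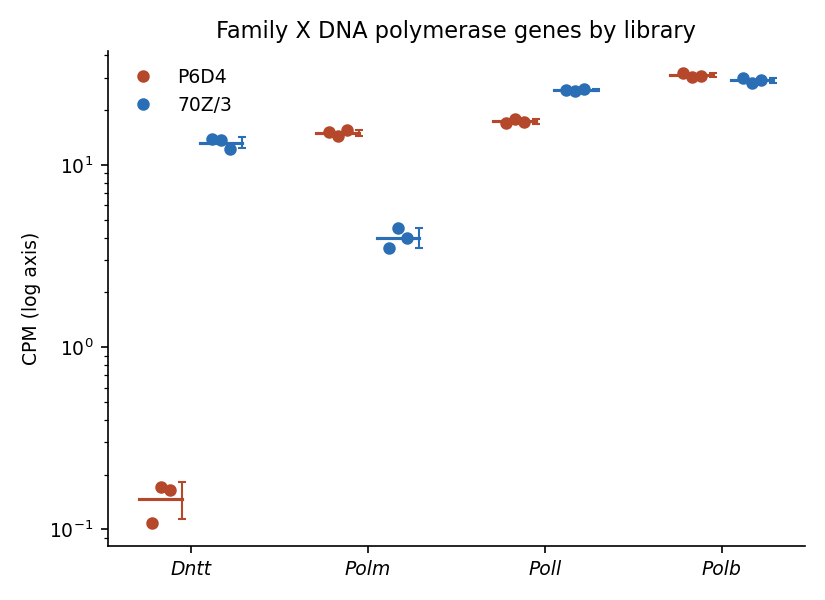
The 4 family X polymerase genes in each library, in CPM on a log axis, with P6D4 in red and 70Z/3 in blue; points are libraries, lines means and bars the SD. Dntt and Polm lie on opposite sides, with Polm at 15.1 CPM in P6D4 against 4.001 CPM in 70Z/3, while Poll and Polb lie close together in the 2 lines.

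Factors that act on the RAG proteins were expressed in both lines. Of 6 listed, 4 were higher in P6D4 and 2 lower, where over all genes tested 43.3% were higher and 43.2% lower. The list had a median log2 change of 0.12, against 0.006 over all genes tested. Skp2, the ubiquitin ligase subunit that marks RAG2 for destruction when cells enter S phase, was at 205.5, 198.2 and 204.0 CPM in P6D4 against 79.2, 83.6 and 81.4 CPM in 70Z/3. Its log2 fold change was 1.32 ± 0.03 (SE; adjusted p = 2.39e-13 by edgeR). Cdk2, which phosphorylates RAG2 for that step, was higher by 0.60, and its partner Ccna2 fell by 0.35. Of the ligase that RAG1 binds through DCAF1, Dcaf1 and Cul4a were higher by 0.11 and 0.14 and Ddb1 fell by 0.69.

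Of 15 factors that bind or join recombinase breaks, 9 passed as higher in P6D4 and 4 as lower, 2 missed the threshold, and the median log2 change was 0.13. Over all genes tested 86.5% were called, so the 13 called of 15 are near the background. Xrcc6, which encodes the Ku70 end-binding subunit, was at 642.0, 634.4 and 595.3 CPM in P6D4 against 76.9, 83.4 and 80.9 CPM in 70Z/3, a log2 change of 2.96 ± 0.04 (SE; adjusted p = 3.8e-16 by edgeR). Its partner Xrcc5 (Ku80), picked with its values known, rose by 0.13 only. Lig4, the ligase of end joining, was higher by 2.42 ± 0.06 (SE). Hmgb1, a DNA-bending cofactor of the recombinase, fell by 1.13 ± 0.04, and Nhej1, which bridges ends for the ligase, fell by 1.07 ± 0.11. The related cofactor gene Hmgb2, picked in the same way, was not called.

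The 20 listed transcription factors known to act on the Rag genes split evenly by direction, 10 higher and 10 lower in P6D4. All genes tested also split evenly (43.3% higher and 43.2% lower, 86.5% called in all). By the 2-fold rule (edgeR glmTreat) 4 of the 20 were higher and 8 lower, against 16.6% and 18.6% of all genes. The median log2 change of the list was -0.36. Gata3, a T lineage factor, was at 129.7, 148.2 and 156.9 CPM in P6D4 against 1.62, 1.33 and 1.27 CPM in 70Z/3, a log2 change of 6.69 ± 0.10 (SE; adjusted p = 4.53e-16 by edgeR). Gfi1, a zinc finger repressor, was higher by 4.03 ± 0.08. Ebf1 and Bcl11a, factors of early B cells, had log2 fold changes of -11.91 and -11.87, with 12 and 8 counts in all in P6D4, and Ebf1 is also in the pre-B marker list. Among factors named after their values were seen, the repressor Gfi1b was at 0.775, 0.702 and 1.29 CPM in P6D4 against 42.7, 41.8 and 40.9 CPM in 70Z/3. Foxo1 and Foxp1, forkhead activators of Rag genes in B cells, had log2 fold changes of -0.84 ± 0.05 and -1.79 ± 0.06 (SE), while the third listed forkhead gene, Foxo3, was higher by 0.88 ± 0.06. The E protein genes Tcf12 and Tcf3 were higher by 1.41 ± 0.03 and 0.20 ± 0.03, and Runx1 by 0.11.

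Of 4 factors known at the Dntt promoter, 3 were lower in P6D4 and 1 was higher, and their median log2 change was -0.99. With 43.2% of all genes tested lower and 43.3% higher, counts over 4 genes set nothing apart. Ikzf1, which encodes Ikaros, was at 387.7, 412.1 and 403.3 CPM in P6D4 against 1007, 1005 and 1007 CPM in 70Z/3, a log2 change of -1.33 ± 0.03 (SE; adjusted p = 1.14e-13 by edgeR). Elf1, an Ets family activator, was at 109.9, 111.3 and 116.6 CPM in P6D4 against 291.6, 272.4 and 277.6 CPM in 70Z/3. Gtf2i, which binds initiator elements, fell by 0.65 and Ets1 was higher by 0.31. Ikzf1, Elf1 and Gtf2i were thus lower in P6D4, as Dntt was, and Ets1 was not. Whether any of these factors bears on the level of Dntt was not tested.

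**Figure D5:**
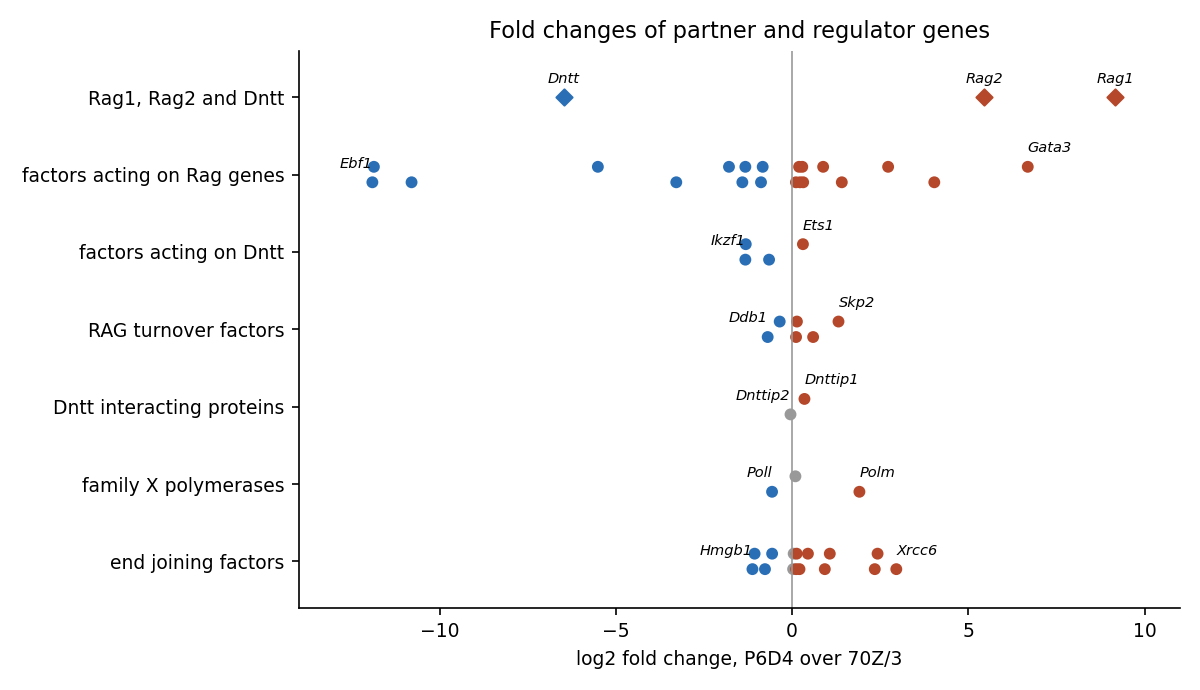
Log2 fold changes of P6D4 over 70Z/3 for Rag1, Rag2 and Dntt (diamonds) and for the listed partner and regulator genes (points, 1 per gene), red for higher, blue for lower and grey for not called (edgeR adjusted p under 0.05). The named points are the ends of each list; the partner lists lie within 3 of 0, while the factors acting on Rag genes run from Ebf1 at -11.91 to Gata3 at 6.69.

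The genes whose pattern over the 6 libraries was most like that of each member were found by Euclidean distance of centred log2 CPM (prior count 2), as a description. Nearest to Rag1 were Dnmt3b, a de novo DNA methyltransferase gene, Slc35f2, Padi3, Tshz3 and Nfatc2, at distances of 0.32 to 0.35. Nearest to Rag2 were Nudt16, Aldoart2, Asb17, Rnf125 and the interferon-inducible Ifi202b, whose near-identical copies make its counts uncertain, at 0.21 to 0.32. Nearest to Dntt were Enpp3, Anxa1 (annexin A1), Raph1, Ncf1 (a subunit of the phagocyte oxidase) and Mpeg1, at 0.10 to 0.33. Rag1 and Rag2 were 4.74 apart, and Dntt was 18.75 from Rag1 and 14.06 from Rag2. The prior count pulls values near 0 together, and several of these genes had few counts in the line where they were low. All 5 near Rag1 had 1 to 8 counts in 70Z/3, where Rag1 had 122. Aldoart2 and Asb17 had 2 counts each in 70Z/3, and Enpp3 had 2 in P6D4 with a log2 fold change of -7.91 against -6.48 for Dntt.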

How the data were processed

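The authors deposited raw read counts of Ensembl genes for 6 RNA-Seq libraries. The submitters' processing notes name HTSeq, TopHat2 2.0.10, Bowtie2 2.10, SAMtools and bedtools and the builds mm10 and GRCm38, without saying which step used which. They leave the strand setting of HTSeq unstated. The 5 HTSeq summary lines were left out (reads outside genes 14.5 to 16.0%, ambiguous 0.382 to 0.424%). Miz1 peaks were called by the authors with MACS 2.0.10.20120913 at a q-value threshold of 0.01, per the file headers. The deposited pileup (signal), fold enrichment (ratio), -log10 p and -log10 q of a peak served only to describe it within its list.

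Counts were tested with edgeR 4.0.16 (filterByExpr, TMM, quasi-likelihood test, Benjamini-Hochberg adjustment over all genes tested, glmTreat for 2-fold), with line as the only term, in R 4.3.3. The median log2 fold change over all genes was 0.006. The SE is the log2 fold change divided by the square root of F and understates counting error at low counts. Counting intervals are exact (Clopper-Pearson or Poisson, 95%, scipy 1.17.1) and cover counting error only. Symbols came from the name table and RefSeq, and all listed symbols matched. The members, lists and tests were chosen with earlier results of these data known. By the rule for named genes, these are the members, the 2 most raised and 2 most lowered called genes of each list, all genes of lists of 6 or fewer, 3 neighbours per side and the 5 nearest profiles. For the marker lists the text gives counts, with values for a few. Some list members are not reported here by name. DESeq2 1.42.0 and limma 3.58.1 served as alternatives. Samples of histone marks and inputs are not analysed here. Figures were drawn with matplotlib 3.10.9.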

Additional observations from a re-analysis of the deposited data

How the results depend on the processing

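Rag1, Rag2 and Dntt kept their direction and their call under every alternative run: DESeq2, limma voom, 3 other scalings, 2 other filters, each library left out, and the replicate block. The log2 fold changes ran from 9.0 to 9.35 for Rag1, 5.31 to 6.01 for Rag2 (highest with Iftap counts added, an alternative chosen after seeing the data) and -6.59 to -6.28 for Dntt. The 3 ratios kept their sign, at 14.82 to 15.84, 10.86 to 12.43 and 3.18 to 4.07, but their exact tests cannot pass the threshold at this size. The low counts of Rag1 and Rag2 in 70Z/3 and of Dntt in P6D4 limit the precision of all of these.

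Same-numbered replicates did not deviate together (correlations -0.055, -0.046 and 0.008), nor did each sample correlate best with its own number, so the numbers were not treated as pairs. With the replicate block, 5867 genes were called higher and 5847 lower, against 5955 and 5936 without it, and the log2 fold changes of Rag1, Rag2 and Dntt stayed at 9.17, 5.46 and -6.48. Sign flips within numbers gave an exact p of 0.25 for each ratio, the smallest possible.

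Of the family X list, 2 genes were higher with upper quartile factors and with library totals only, and 1 to 2 with a library left out. Of the TdT-binding list, 0 to 1 were lower with a library left out. Without a filter, 2 myeloid, 1 NK and 2 erythroid markers were higher and 2 NK and 1 stromal marker lower. With at least 1 CPM in 3 libraries, 0 erythroid markers were lower. Dnttip2 turned to 0.01 with upper quartile factors, and the cause was not tested. Of the settings for genes other than the 3, 848 kept direction and call and 4 gained a call, 3 for Polb and 1 for Dnttip2. Peak counts, from lists of 21629 peaks in P6D4 and 10462 in 70Z/3, followed the window: at 20 kb both loci had 0 in both lists, and at 500 kb the Rag1-Rag2 locus had 11 in P6D4 and 4 in 70Z/3 and Dntt 7 in P6D4 and 1 in 70Z/3. With -log10 q of at least 10, the P6D4 list kept 0 peaks near Rag1-Rag2 and 1 near Dntt.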
